A study of Mus musculus with 8 samples.

Results

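Mouse Toll-like receptors and their partners were followed in fibro-adipogenic progenitors (FAPs), the PDGFRA-expressing mesenchymal cells of skeletal muscle, after injury and loss of the transcription factor Osr1. The members were 10 genes, taken by symbol from the 55276 gene symbols of the deposited TPM tables (transcript abundance scaled to a fixed total per library): the surface receptors Tlr1, Tlr2, Tlr4, Tlr5 and Tlr6, the endosomal receptors Tlr3 and Tlr7, the co-receptors Cd14 and Ly96, and the adaptor Myd88. All 10 were listed in all 8 libraries.

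The tibialis anterior muscle of mice aged 4 to 6 months was injured by freeze and pierce, and tamoxifen was given on that day and on the next days. Every mouse carried CAGG-CreER, a Cre active in all tissues once tamoxifen is given, so deletion was not limited to FAPs. Control mice were Osr1 flox/+ CAGG Cre+ and Osr1cKO mice were Osr1 flox/flox CAGG Cre+. The recombined allele expresses eGFP, and eGFP-positive cells negative for CD31, CD45 and TER119 were sorted in both genotypes, so control FAPs had also lost 1 copy of Osr1. RNA was sequenced at 3 and 7 days post injury (dpi), with 2 libraries for each genotype and day. A 3 dpi library came from 1 mouse and a 7 dpi library from 4 pooled mice, so the day of sampling and the pooling cannot be told apart. The labels name the tibialis anterior as the tissue, and the series' design text names the hindlimb.

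Toll-like receptors recognise molecules of microbes and of damaged cells. Tlr2 pairs with Tlr1 or Tlr6 to bind lipopeptides, Tlr4 binds lipopolysaccharide together with Ly96 (also called MD-2) after Cd14 has delivered it, and Tlr5 binds flagellin. Tlr3 and Tlr7 sit in endosomes and bind double-stranded and single-stranded RNA. Myd88 carries the signal of every one of these receptors except Tlr3, which uses Ticam1 (TRIF), and the pathway ends in NF-kB and interferon regulatory factors that switch on cytokine genes.

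Promoter windows from RefSeq (GRCm38.p6, from 250 bases before to 50 bases after a start site) were matched for 6 of the 10 members, as 8 windows. Tlr4, Tlr7, Cd14 and Ly96 had no entry. Stretches outside annotated exons are shown for Tlr3 and Tlr2, the receptors with the highest levels in controls at 3 dpi, and for Myd88, the member with the highest level in all groups. Capitals mark matches to the NF-kB pattern GGGNNNNNCC in Tlr2 and Tlr3 and to the interferon-stimulated response element pattern GAAANNGAAA in Myd88, searched on both strands. The Tlr2 stretch (chr3:83841768-83841858, minus strand) ran from position -250 to -160, where 0 is the start site of the window. The Tlr3 stretch (chr8:45410381-45410452, minus strand) ran from -72 to -1, and the Myd88 stretch (chr9:119340042-119340268, minus strand) from -250 to -24. These last stretches lie between exons inside the annotated genes (chr8:45395665-45411080 and chr9:119335934-119341411). Their start sites are therefore not the outermost ones of Tlr3 and Myd88.
Tlr2: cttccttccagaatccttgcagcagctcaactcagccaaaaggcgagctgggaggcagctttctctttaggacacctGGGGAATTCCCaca
Tlr3: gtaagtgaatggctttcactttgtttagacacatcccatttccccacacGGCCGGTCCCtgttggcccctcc
Myd88: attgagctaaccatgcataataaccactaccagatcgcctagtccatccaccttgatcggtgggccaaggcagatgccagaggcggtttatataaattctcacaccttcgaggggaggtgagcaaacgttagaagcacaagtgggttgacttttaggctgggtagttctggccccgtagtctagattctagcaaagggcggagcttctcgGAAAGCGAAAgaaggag

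The capitals in Tlr2 hold 2 overlapping matches on the strand of the gene, from -173 to -163. They also hold a match on the opposite strand from -172 to -163. The marked match in Tlr3 lies on the opposite strand from -23 to -14. The match in Myd88 lies on the strand of the gene from -40 to -31. Only matches wholly inside a printed stretch are marked. The Tlr3 window also held matches from -211 to -202 and from -9 to 0, and the Tlr2 window others between -9 and 2. The NF-kB pattern was held by 4 of the 8 member windows, those of Tlr2, Tlr3 and Tlr5 and 1 of the 2 windows of Tlr6, against 50.8% of all 32851 promoter windows. The interferon-stimulated pattern was held by the Myd88 window and by the other Tlr6 window, against 3.44% of all windows, and no member window held the AP-1 pattern TGANTCA, found in 7.81%. These matches describe letters only.

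The libraries held 36516530 to 51096356 fragments on genes, recovered from the TPM values and the exon lengths of GENCODE release 21 for mouse. Osr1 itself stood at 105 and 91.0 TPM in control and at 70.7 and 71.9 TPM in Osr1cKO at 3 dpi, and at 67.6 and 71.6 TPM against 64.4 and 60.8 TPM at 7 dpi. On each day both Osr1cKO values were under both control values, although a gene-level value also counts exons outside the floxed one and the control carries a deleted copy. Of the 7 FAP markers, Pdgfra was at no less than 197 TPM in any library, and Col1a1, with 12400 to 28080 TPM, made up most of their sum of 20100 to 35100 TPM. Ly6a, which encodes the surface antigen Sca-1 and is named after its values were seen, stood at 5407 and 4232 TPM in control and at 3058 and 2020 TPM in Osr1cKO at 3 dpi (log2 fold change -0.94, unadjusted p = 0.0368, adjusted p = 0.781, limma), which passed the threshold used for the members at that day. The other 6 FAP markers did not pass at 3 dpi, and none of the 7 passed at 7 dpi. Ptprc, which encodes the CD45 of the negative gate, was at or below 0.216 TPM in all 8 libraries. The summed levels of other lists were between 13.6 and 90.4 TPM for 15 macrophage and monocyte genes, 1.26 and 17.9 for 7 neutrophil genes, 0.838 and 5.77 for 6 dendritic cell genes, and 4.56 and 12.6 for 4 B cell genes. They were between 0.0784 and 5.80 TPM for 7 T and NK cell genes, 17.2 and 71.8 for 6 endothelial genes, 4.42 and 22.5 for 4 muscle stem cell genes, 1.78 and 32.4 for 4 myofiber genes, 0 and 53.3 for 5 erythroid genes, and 22.7 and 90.5 for 4 pericyte genes. In such bulk libraries, fewer cells that express a gene and less RNA of it per cell cannot be told apart.

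FAPs expressed members of all 3 classes, and levels in single libraries ran from 0.0277 to 235 TPM. Levels are given as TPM, which is per length, so genes can be compared. Myd88 was the highest member in each group, with group means from 144 to 201 TPM, and made up 60.9 to 69.8% of the summed TPM of the 10 members in a library. Tlr1 was the lowest in each group, with group means from 0.0545 to 0.475 TPM. In control FAPs at 3 dpi the order after Myd88 was Tlr3, Tlr2, Tlr4, Cd14, Ly96, Tlr7, Tlr5, Tlr6 and Tlr1, where Tlr4, Cd14 and Ly96 overlapped as neighbours. In Osr1cKO FAPs at 3 dpi Cd14 followed Tlr3 and overlapped it, ahead of Tlr2, Ly96, Tlr4, Tlr7, Tlr5, Tlr6 and Tlr1. Of these, Tlr2 with Ly96, Ly96 with Tlr4, and Tlr7 with Tlr5 also overlapped. At 7 dpi the controls ran Myd88, Tlr2, Tlr4, Cd14, Tlr3, Ly96, Tlr5, Tlr6, Tlr7 and Tlr1, and the neighbours Cd14 and Tlr3, and Tlr3 and Ly96, overlapped. Osr1cKO FAPs at 7 dpi ran Myd88, Cd14, Tlr2, Tlr4, Ly96, Tlr3, Tlr5, Tlr6, Tlr7 and Tlr1, and the neighbours Tlr4 and Ly96, and Ly96 and Tlr3, overlapped.

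**Figure D1:**
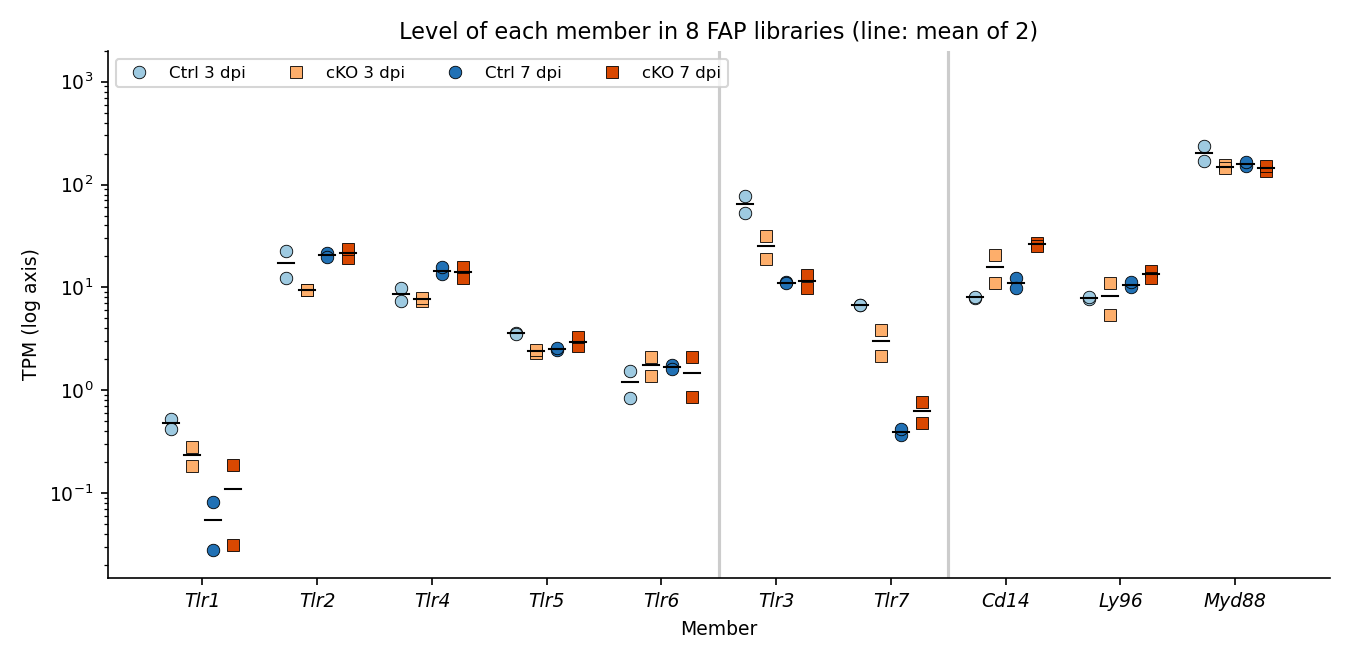
Level of each member in TPM on a log axis, with 1 point per library, circles for control and squares for Osr1cKO, pale at 3 dpi and dark at 7 dpi, and a line at the mean of 2 libraries. Myd88 lies above every other member in all groups, Tlr3 and Tlr7 drop from the pale to the dark symbols, and the Cd14 squares lie above the circles of the same day.

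At 3 dpi, the comparison of Osr1cKO with control FAPs asked how loss of Osr1 bears on these genes early in regeneration. The RNA receptors Tlr3 and Tlr7 were lower and the co-receptor Cd14 was higher in Osr1cKO. A gene was called at this day if limma gave an unadjusted p below 0.05 with a fold over 1.2. Of the 10 members, 2 were called lower and 1 higher, against 3.89% of the 15697 tested genes lower and 2.38% higher. The smallest adjusted p of any gene was 0.328, so no call at this day would pass an adjusted threshold of 0.1. The median log2 fold change of the members was -0.33, beside 0.007 for all tested genes. The FAP marker Ly6a was lower in Osr1cKO at the same threshold, and its part in the members' values was not tested.

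Tlr3, the sensor of double-stranded RNA (chromosome 8, 45395665 to 45411080, GRCm38), stood at 76.7 and 52.8 TPM in control and at 32.0 and 18.7 TPM in Osr1cKO. It fell from 64.8 ± 16.9 to 25.3 ± 9.39 TPM (SD, n = 2), with log2 fold change -1.35 on the log2(TPM + 1) scale and standard error (SE) 0.32 (unadjusted p = 0.00834 and adjusted p = 0.772 from limma). Both Osr1cKO libraries lay below both controls, with a wide spread inside each genotype, and Tlr3 was called in all 15 alternatives that refitted it (log2 fold change -1.74 to -0.95). Its exons overlap those of the antisense gene Gm45542 over 381 bp. The library kit keeps strand, but the counting is not stated to use it, so reads of both genes could not be separated with certainty.

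Tlr7, the sensor of single-stranded RNA (chromosome X, 167304929 to 167330558), stood at 6.71 and 6.78 TPM in control, from 341 and 352 fragments, and at 2.17 and 3.87 TPM in Osr1cKO, from 112 and 207 fragments. It fell from 6.74 ± 0.0501 to 3.02 ± 1.205 TPM (SD, n = 2), with log2 fold change -0.98 and SE 0.26 (unadjusted p = 0.0132, adjusted p = 0.772, limma). The 2 controls were almost equal and both Osr1cKO libraries lay below them. Without the first Osr1cKO library the log2 fold change was -0.69 and no longer passed (unadjusted p = 0.0849, against 0.00344 to 0.0849 over 15 alternatives).

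Cd14, which binds lipopolysaccharide and passes it to Tlr4 and Ly96 (chromosome 18, 36725067 to 36726798), stood at 7.97 and 8.12 TPM in control and at 11.0 and 20.5 TPM in Osr1cKO. It rose from 8.05 ± 0.106 to 15.7 ± 6.78 TPM (SD, n = 2), with log2 fold change 0.83 and SE 0.30 (unadjusted p = 0.0411, adjusted p = 0.784, limma). The Osr1cKO libraries did not overlap the controls but differed from each other. Without the second Osr1cKO library the log2 fold change was 0.42 (unadjusted p = 0.221), and it also missed the threshold without either control library (unadjusted p = 0.103 without the first and 0.0875 without the second) or without a filter on low values (unadjusted p = 0.0651, against 0.0081 to 0.221 over 15 alternatives). The 15 macrophage and monocyte genes summed to 24.3 and 25.8 TPM in control and to 28.7 and 13.6 TPM in Osr1cKO. None of the 13 genes tested from that list passed. The part of macrophages and monocytes in these Cd14 values was not tested.

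The other 7 members did not pass at 3 dpi. Tlr2, the lipopeptide receptor (chromosome 3, 83836272 to 83841767), stood at 22.4 and 12.2 TPM in control and at 9.52 and 9.45 TPM in Osr1cKO, with log2 fold change -0.74 and SE 0.30 (unadjusted p = 0.0553). The Osr1cKO libraries lay below both controls, and the estimate ranged from -1.15 without the second control library (unadjusted p = 0.00227) to -0.35 without the first (unadjusted p = 0.136). It passed in 6 of 15 alternatives. The first control library also had the highest sum of endothelial markers at 3 dpi, 44.7 TPM beside 17.2 to 21.3 TPM in the other 3. Of this sum, Tek was 25.4 TPM and Kdr 16.8 TPM, named after their values were seen. The rest differed in direction from the second control library: Cdh5 was 0.822 against 1.12 TPM and Emcn 0.104 against 0.160 TPM. Pecam1 was 1.19 against 1.10 TPM and Vwf 0.275 against 0.108 TPM. The part of endothelial cells in the Tlr2 value was not tested. Tlr5, the flagellin receptor (chromosome 1, 182954788 to 182976044), stood at 3.62 and 3.53 TPM in control and at 2.28 and 2.49 TPM in Osr1cKO, with log2 fold change -0.44 and SE 0.18 (unadjusted p = 0.0601). Its 2 genotypes did not overlap either.

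Myd88 (chromosome 9, 119335934 to 119341411) stood at 235 and 168 TPM in control and at 155 and 145 TPM in Osr1cKO, with log2 fold change -0.41 and SE 0.19 (unadjusted p = 0.0876). The genotypes did not overlap, and the value was -0.65 without the second control library (unadjusted p = 0.00738). Its exons share 290 bp with Acaa1a on the opposite strand. Tlr4 (chromosome 4, 66827584 to 66930284) stood at 9.86 and 7.39 TPM in control and at 7.35 and 7.94 TPM in Osr1cKO, and the genotypes overlapped (log2 fold change -0.14, SE 0.21). Ly96 (chromosome 1, 16688051 to 16709611), the protein that forms the lipopolysaccharide pocket with Tlr4, stood at 7.79 and 8.01 TPM in control, between the 5.42 and 11.1 TPM of the Osr1cKO libraries (log2 fold change -0.01, SE 0.33).

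Tlr1 and Tlr6 are neighbours on chromosome 5, at 64924679 to 64933563 and 64952031 to 64960097, and share sequence. Of the 75-base windows of their transcripts, 10.6% of those of Tlr1 and 9.25% of those of Tlr6 also occurred in another gene, so their values are uncertain to that extent, while the other 8 members had none. Tlr1 stood at 0.528 and 0.423 TPM in control and at 0.283 and 0.183 TPM in Osr1cKO, from 22, 18, 12 and 8 fragments. Its log2 fold change was -0.26 with SE 0.13 (unadjusted p = 0.112, limma), which understates the change of so low a gene. With limma-voom it was -1.02 (unadjusted p = 0.104). Tlr6 stood at 0.840 and 1.54 TPM in control and at 2.12 and 1.37 TPM in Osr1cKO, and the genotypes overlapped (log2 fold change 0.33, SE 0.25). In all, 6 members lay lower in both Osr1cKO libraries than in both controls and 1 lay higher, where 18.1% of the tested genes did the former and 18.3% the latter.

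**Figure D2:**
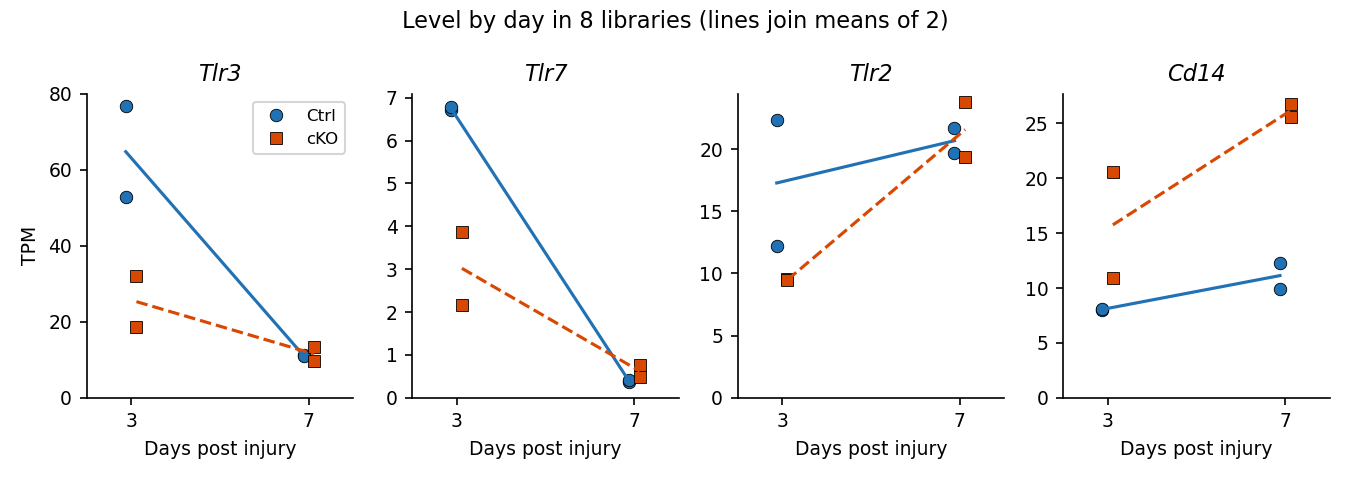
Level in TPM of Tlr3, Tlr7, Tlr2 and Cd14 against days post injury, with each library as a point, control as blue circles and Osr1cKO as orange squares, and lines joining the means of 2 libraries. The genotypes are apart at 3 dpi in all 4 panels, meet at 7 dpi for Tlr3 and Tlr2, lie close together for Tlr7, and stay apart for Cd14.

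At 7 dpi, a call needed an adjusted p below 0.1 from limma with a fold over 1.2, and 9 members could be tested. None of them was called, against 11 of 16577 tested genes (0.0664%). With the unadjusted threshold of 3 dpi, Cd14 was higher and Myd88 lower, where 5.21% of the tested genes were higher and 5.91% lower (864 and 979 genes, or 2280 and 468 without scaling between libraries). With limma-voom on the recovered fragments, Cd14 was the 1 member called, where 188 of 16357 tested genes were called. The median log2 fold change of the members tested was -0.07, beside 0.005 for all tested genes.

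Cd14 stood at 12.3 and 9.94 TPM in control and at 26.8 and 25.5 TPM in Osr1cKO, or 11.1 ± 1.68 against 26.2 ± 0.874 TPM (SD, n = 2). Both Osr1cKO libraries were above both controls, with little spread inside each genotype. The log2 fold change was 1.05 (SE 0.14, unadjusted p = 0.000382, adjusted p = 0.176, limma), and 1.11 with limma-voom (adjusted p = 0.0424). Over 14 alternatives the log2 fold change ranged from 0.89 without the second control library to 1.19 without the first. With a block for the replicate number, Cd14 missed the threshold as it did in the main fit (adjusted p = 0.108, limma). Of the refits that kept all libraries, limma-voom alone called it at the adjusted threshold. Cd14 was thus higher in both Osr1cKO libraries than in both controls on each day, as were 5.85% of the 15042 genes tested on both days.

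Markers of other cells were measured beside this result. The 15 macrophage and monocyte genes summed to 56.5 and 65.5 TPM in control and to 63.5 and 90.4 TPM in Osr1cKO at 7 dpi. Of the 14 tested, Csf1r, the receptor for macrophage colony-stimulating factor, was the 1 gene higher at an unadjusted p under 0.05 (0.819 and 1.08 TPM in control, 1.51 and 2.001 TPM in Osr1cKO, unadjusted p = 0.039, limma), and none was lower. By sign, 12 of the 14 had a positive log2 fold change and 2 a negative one, with a median of 0.095 beside 0.005 for all tested genes. Cd68 stood at 12.5 and 13.7 TPM against 15.6 and 17.4 TPM, and Lyz2 at 23.9 and 21.1 TPM against 19.5 and 36.1 TPM. Ptprc was between 0.119 and 0.216 TPM at this day. The 7 neutrophil genes summed to 3.88 and 10.3 TPM in control and to 8.94 and 17.9 TPM in Osr1cKO, with Ly6g between 0 and 0.111 TPM. Of the 4 neutrophil genes tested, 3 had a positive log2 fold change and 1 a negative one, and none passed the unadjusted threshold. The endothelial genes Cdh5 and Emcn were also higher at that threshold, and Cd79a, Acta1 and Ckm were lower. The part of these cells in the Cd14 values was not tested.

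Myd88 stood at 150 and 167 TPM in control and at 136 and 152 TPM in Osr1cKO at 7 dpi, which overlapped as deposited and did not overlap after scaling. Its log2 fold change was -0.27 (SE 0.08, unadjusted p = 0.0214, adjusted p = 0.335, limma), and -0.14 without scaling (unadjusted p = 0.192). Myd88 was lower in both Osr1cKO libraries than in both controls on each day after scaling, as were 5.39% of the genes tested on both days. The genotypes overlapped at 7 dpi for Tlr2 (21.7 and 19.7 TPM against 19.4 and 23.8 TPM), Tlr3 (11.3 and 11.0 TPM against 9.80 and 13.3 TPM) and Tlr4 (13.4 and 15.7 TPM against 12.2 and 15.7 TPM).

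The log2 fold changes at 7 dpi were -0.07 (SE 0.12) for Tlr2, -0.09 (0.15) for Tlr3 and -0.18 (0.14) for Tlr4. Without scaling between libraries the sign turned for Tlr2 (0.05) and Tlr3 (0.04), so no direction can be read for them at this day. Ly96 stood at 10.1 and 11.2 TPM in control and at 14.6 and 12.3 TPM in Osr1cKO, which did not overlap as deposited but did after scaling (log2 fold change 0.19, SE 0.14, unadjusted p = 0.23). Tlr5 likewise stood at 2.44 and 2.57 TPM against 2.67 and 3.26 TPM and overlapped after scaling (log2 fold change 0.08, SE 0.15). Tlr6 stood at 1.74 and 1.605 TPM in control, between the 0.865 and 2.09 TPM of the Osr1cKO libraries.

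Tlr7 at 7 dpi was low, at 0.364 and 0.422 TPM in control and at 0.764 and 0.484 TPM in Osr1cKO, from 16, 19, 30 and 19 fragments. Both Osr1cKO libraries were above both controls, with log2 fold change 0.18 and SE 0.14 (unadjusted p = 0.265). Over the summed fragments of each group the ratio of Osr1cKO to control was 1.53, with an exact 95% interval of 0.974 to 2.44 that covers counting error only. Tlr1 had 1 and 3 fragments in control and 1 and 6 in Osr1cKO, too few to be tested, and its ratio was 1.92 with an interval of 0.488 to 8.93. On scaled values, 2 members lay higher in both Osr1cKO libraries than in both controls (Cd14 and Tlr7) and 1 lower (Myd88), where 22.9% and 22.8% of the tested genes did so.

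**Figure D3:**
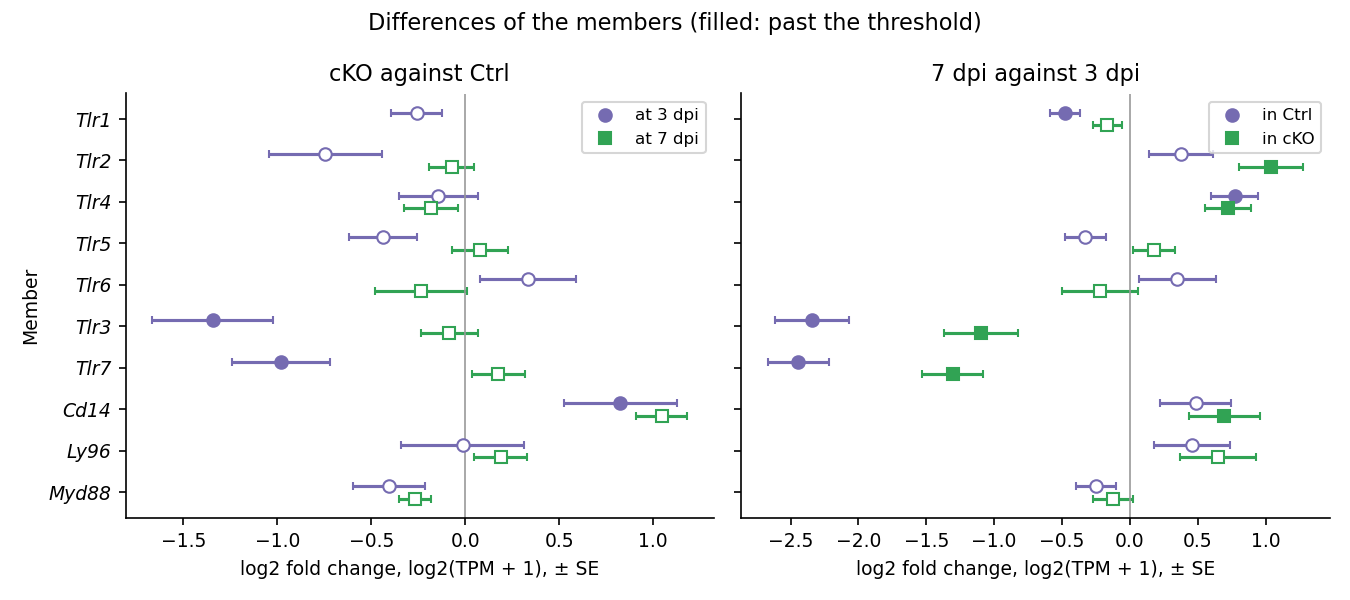
Log2 fold change of each member on the log2(TPM + 1) scale with its SE, Osr1cKO against control on the left and 7 dpi against 3 dpi on the right, with filled symbols past the threshold of that comparison. On the left Tlr3 (-1.35), Tlr7 (-0.98) and Cd14 (0.83) are filled at 3 dpi and none at 7 dpi, and on the right Tlr3, Tlr4 and Tlr7 are filled in both genotypes.

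Ratios between members within a library do not depend on scaling between libraries. The ratio of Cd14 to Tlr4, 2 parts of lipopolysaccharide recognition, was 0.809 and 1.10 in control and 1.49 and 2.59 in Osr1cKO at 3 dpi. At 7 dpi it was 0.920 and 0.634 in control and 2.19 and 1.62 in Osr1cKO. The Osr1cKO ratios were above the control ratios on each day, without overlap. The ratio of Ly96 to Tlr4 overlapped between genotypes at 3 dpi (0.790 and 1.08 against 0.737 and 1.40) and not at 7 dpi (0.753 and 0.713 against 1.19 and 0.784). Tlr3 made up 63.6 and 62.4% of the summed TPM of the 7 receptors in control and 57.4 and 42.5% in Osr1cKO at 3 dpi, and between 21.4 and 22.6% in all 4 libraries at 7 dpi. These ratios were chosen after the values were seen and are given without a test.

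The comparison of days asked how the members differed between early and later regeneration. In both genotypes the RNA receptors Tlr3 and Tlr7 fell and the lipopolysaccharide receptor Tlr4 rose. In control FAPs, 3 of the 10 members were lower and 1 higher at 7 dpi, by the same adjusted threshold. Of the 17367 genes tested in this fit, 27.9% were lower and 26.5% higher, so calls were common. In Osr1cKO FAPs 2 members were lower and 3 higher, against 26.2% and 23.9% of all tested genes. The study's methods name 2 sequencing instruments with different read lengths, and the sources differ on the run of each day. Day, pooling of mice and sequencing run cannot be told apart.

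In control FAPs, Tlr3 fell from 64.8 ± 16.9 to 11.1 ± 0.198 TPM (SD, n = 2), with log2 fold change -2.34 and SE 0.27 (adjusted p = 0.000799, limma). Tlr7 fell from 6.74 ± 0.0501 to 0.393 ± 0.0411 TPM (SD, n = 2), with log2 fold change -2.44 and SE 0.22 (adjusted p = 0.000398), which understates the change of so low a gene. Every 7 dpi control library was far below every 3 dpi control library for both genes. Tlr1 also fell, from 40 fragments in all at 3 dpi to 4 at 7 dpi, a ratio of 0.118 with an exact 95% interval of 0.0307 to 0.326 for counting error (adjusted p = 0.0117, limma). Tlr4 rose from 8.62 ± 1.75 to 14.5 ± 1.61 TPM (SD, n = 2), with log2 fold change 0.77 and SE 0.17 (adjusted p = 0.00971).

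In Osr1cKO FAPs, Tlr3 fell from 25.3 ± 9.39 to 11.6 ± 2.47 TPM (SD, n = 2), with log2 fold change -1.10 and SE 0.27 (adjusted p = 0.0174, limma). Without the first 7 dpi Osr1cKO library the Tlr3 value was -0.92 and just missed the threshold (adjusted p = 0.101, against 0.00996 to 0.101 over 13 alternatives). Tlr7 fell from 3.02 ± 1.205 to 0.624 ± 0.198 TPM, with log2 fold change -1.31 and SE 0.22 (adjusted p = 0.00422, limma). Tlr4 rose from 7.65 ± 0.418 to 14.0 ± 2.49 TPM, with log2 fold change 0.72 and SE 0.17 (adjusted p = 0.0146, limma). Its 4 libraries at 7 dpi lay above all 4 libraries at 3 dpi.

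Tlr2 and Cd14 passed between days in Osr1cKO FAPs. Tlr2 rose from 9.48 ± 0.0477 to 21.6 ± 3.09 TPM, with log2 fold change 1.04 and SE 0.24 (adjusted p = 0.0127, limma). In control it was 0.38 (adjusted p = 0.227), where the first 3 dpi library alone was as high as the 7 dpi libraries, and without that library it was 0.75 (adjusted p = 0.00862). Cd14 rose from 15.7 ± 6.78 to 26.2 ± 0.874 TPM, with log2 fold change 0.70 and SE 0.26 (adjusted p = 0.0702), beside 0.49 in control (adjusted p = 0.167). The Cd14 call was lost without either 7 dpi Osr1cKO library or the first 3 dpi Osr1cKO library, or without a filter on low values, and the adjusted p over 13 alternatives lay between 0.0128 and 0.315. Ly96 missed the threshold in Osr1cKO (log2 fold change 0.65, adjusted p = 0.104) and in control (0.46, adjusted p = 0.219), and in Osr1cKO it passed in 5 of 13 alternatives, with 1.09 without the second 3 dpi library. Tlr5, Tlr6 and Myd88 passed in neither genotype, with log2 fold changes between days from -0.33 to 0.35. In control, Myd88 passed only without the second 3 dpi library (-0.46, adjusted p = 0.019) and Tlr5 only without scaling (-0.38, adjusted p = 0.0883). Tlr1 in Osr1cKO had 20 fragments at 3 dpi and 7 at 7 dpi, a ratio of 0.481 with an interval of 0.172 to 1.18.

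Markers of many other cells were also higher at 7 dpi. Beside the counts that follow, 26.5% of all tested genes were higher and 27.9% lower in control, and 23.9% and 26.2% in Osr1cKO. Of the 14 macrophage and monocyte genes tested, 7 were higher in control and 11 in Osr1cKO, and none was lower. Their sum went from 24.3 and 25.8 TPM to 56.5 and 65.5 TPM in control and from 28.7 and 13.6 TPM to 63.5 and 90.4 TPM in Osr1cKO. Of 4 erythroid genes tested, 4 were higher in each genotype, and the sum of that list went from 1.33 and 1.44 TPM to 17.5 and 47.8 TPM in control and from 1.36 and 0 TPM to 11.7 and 53.3 TPM in Osr1cKO. Of 4 myofiber genes, 4 were higher in control and 3 in Osr1cKO, with sums from 1.78 and 2.75 TPM to 32.4 and 22.8 TPM in control and from 2.35 and 1.78 TPM to 16.2 and 15.6 TPM in Osr1cKO. In control the muscle actin Acta1 had a log2 fold change of 3.14 (adjusted p = 0.000221, limma), the pericyte gene Rgs5 of 3.99 (adjusted p = 0.00308), the globin Hbb-bs of 3.69 (adjusted p = 0.00378) and the endothelial gene Pecam1 of 1.31 (adjusted p = 0.00149), and these 4 were named after their values were seen.

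The 6 endothelial genes tested gave 3 higher and 1 lower in control and 5 higher in Osr1cKO, and the 4 pericyte genes 3 higher in each genotype and 1 lower in Osr1cKO. Of 4 muscle stem cell genes, 4 were higher in control and 1 in Osr1cKO, although all 4 had a positive log2 fold change in each genotype. In control at 7 dpi, Pax7, Myf5 and Myod1 stood at 2.30, 4.68 and 2.04 TPM in the first library. In the second they stood at 0.170, 0.261 and 0.195 TPM. The neutrophil list gave 2 and 3 higher of 4, the dendritic cell list 2 and 2 of 2, the T and NK cell list 1 and 1 of 1, and the B cell list 0 and 0 of 2. Of the 7 FAP markers, 4 were higher and 2 lower in each genotype, and Ly6a was among the lower ones (log2 fold change -1.45 in control, adjusted p = 0.00518, and -0.72 in Osr1cKO, adjusted p = 0.0738, limma). The part of these cells in the differences of the members between days was not tested.

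Whether the effect of genotype differed between days was tested as an interaction over all 8 libraries. No member and none of the 17367 tested genes passed an adjusted p of 0.1 (0.0%), with limma on log2(TPM + 1) or, for the members, with limma-voom. At an unadjusted p under 0.05, Tlr3 (difference 1.25, SE 0.38, unadjusted p = 0.0136, adjusted p = 0.653) and Tlr7 (difference 1.14, SE 0.31, unadjusted p = 0.00831, adjusted p = 0.612) stood out among the members, where 6.77% of all tested genes lay under that p. Tlr3 was below control at 3 dpi and overlapped it at 7 dpi, where no direction could be read, and the Tlr7 libraries were below both controls at 3 dpi and above both at 7 dpi, where the difference did not pass. Without the second 7 dpi Osr1cKO library the Tlr3 difference was 1.08 (unadjusted p = 0.0511). For Cd14 the difference was 0.21 (SE 0.37, unadjusted p = 0.588) and for Tlr2 0.66 (SE 0.33, unadjusted p = 0.0878).

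**Figure D4:**
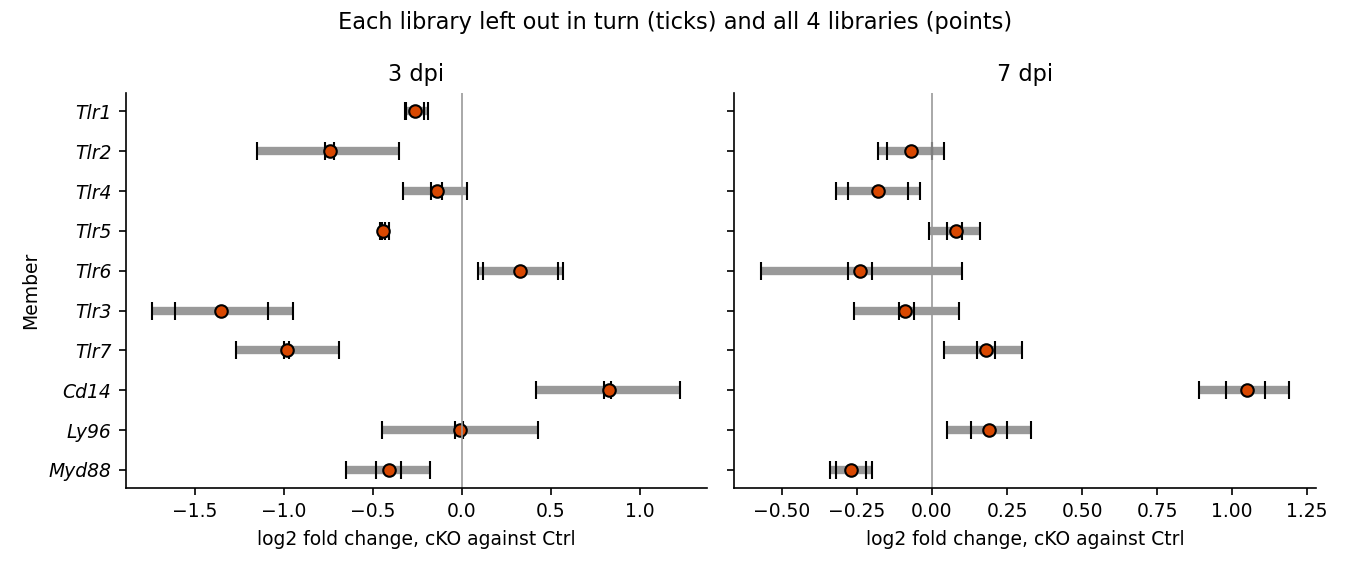
Log2 fold change of Osr1cKO against control for each member at 3 dpi and 7 dpi, with the value from all 4 libraries as a point, the values with each library left out in turn as ticks, and their range as a grey bar. Tlr3 and Tlr7 stay below 0 and Cd14 above 0 at 3 dpi, where the range crosses 0 for Tlr4 and Ly96 alone. At 7 dpi Cd14 ranges from 0.89 to 1.19. Tlr1 was not tested at 7 dpi.

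For the members whose group means of scaled log2(TPM + 1) spanned at least 1, the 2 genes with the most similar pattern over the 8 libraries were sought among 15042 genes tested on both days. The measure was the root mean square difference between profiles, each centred on its own mean. For Tlr3 these were Parp12, an interferon-inducible ADP-ribosyltransferase, at 0.12 and Pax5, a B cell transcription factor, at 0.16, where the profile of Tlr3 itself had a root mean square of 1.007. Parp12 stood at 250 and 192 TPM in control and at 133 and 63.0 TPM in Osr1cKO at 3 dpi, and between 40.9 and 48.6 TPM at 7 dpi, which follows the order of the Tlr3 libraries at 3 dpi. Pax5 did not exceed 5.85 TPM. For Tlr7 they were Hmga1, a chromatin protein, at 0.23 and the chemokine Ccl2 at 0.24, against 1.012 for Tlr7 itself.

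For Tlr2 the nearest genes were the homeobox gene Hoxa6 and Cd68, a lysosomal protein abundant in macrophages, both at 0.13 against 0.48 for Tlr2 itself. Cd68 stood at 15.4 and 8.38 TPM in control and at 7.42 and 6.87 TPM in Osr1cKO at 3 dpi, and between 12.5 and 17.4 TPM at 7 dpi. Its value was high in the first 3 dpi control library, as was that of Tlr2. The 15 macrophage and monocyte genes summed to 24.3 TPM in that library, of which Cd68 was 15.4 TPM. In the second 3 dpi control library they summed to 25.8 TPM, of which Cd68 was 8.38 TPM. The part of macrophages in the Tlr2 values was not tested. For Cd14 they were Gm8483 and Emb, which encodes the cell adhesion protein embigin, both at 0.24 against 0.61 for Cd14 itself. The 8 libraries share their scaling, and likeness was not tested.

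The rest of the pathway was described with 81 genes in 7 lists: other Toll-like receptors, folding and delivery proteins, other adaptors, kinases with ubiquitin ligases and transcription factors, negative regulators, endogenous ligands, and target cytokines and enzymes. At 3 dpi, 69 were tested, of which 10 were lower in Osr1cKO and none higher by the unadjusted threshold, and their median log2 fold change was -0.08. At 7 dpi, 70 were tested, and 6 were higher and 7 lower at that threshold, with a median of -0.03. None of the 70 passed the adjusted threshold at 7 dpi, so the genes named below for that day passed the unadjusted one alone. The shares of all tested genes given above for each threshold are the background of these counts.

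Tlr8, Tlr9, Tlr11, Tlr12 and Tlr13, the other mouse receptors, were at or below 1.11 TPM in all libraries, and Tlr13 was the 1 of the 5 tested between genotypes. Unc93b1, the chaperone that brings Tlr3 and Tlr7 to endosomes, stood at 179 and 114 TPM in control and at 98.7 and 74.9 TPM in Osr1cKO at 3 dpi (log2 fold change -0.72, unadjusted p = 0.0423, adjusted p = 0.784, limma). At 7 dpi it passed the unadjusted threshold, at 51.2 and 53.4 TPM against 46.4 and 45.4 TPM (log2 fold change -0.31, unadjusted p = 0.00791, adjusted p = 0.287). It was the 1 of 10 folding and delivery genes that passed at 3 dpi. At 7 dpi, 2 more passed the unadjusted threshold only. Tril, a leucine-rich repeat partner of Tlr4, stood at 26.0 and 30.5 TPM against 18.4 and 25.3 TPM (adjusted p = 0.333, limma), and Cd36, a scavenger receptor, at 1.71 and 1.26 TPM against 2.37 and 3.57 TPM (adjusted p = 0.354).

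None of the 4 tested adaptors other than Myd88 passed on either day, and Ticam1, the adaptor of Tlr3, lay between 17.1 and 21.7 TPM in all libraries. Of 21 kinases, ubiquitin ligases and transcription factors, 2 were lower in Osr1cKO at 3 dpi and none passed at 7 dpi. Both are interferon regulatory factors that act downstream of Tlr7. Irf5 stood at 53.8 and 17.99 TPM in control and at 10.9 and 7.12 TPM in Osr1cKO (log2 fold change -1.71, SE 0.53, unadjusted p = 0.0234, adjusted p = 0.772, limma). Irf7 stood at 872 and 527 TPM in control and at 384 and 87.8 TPM in Osr1cKO (log2 fold change -1.88, SE 0.73, unadjusted p = 0.049, adjusted p = 0.784). Both were named by a rule that asked for no overlap between genotypes, so their lack of overlap is no further support.

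Of the 12 negative regulators tested at 3 dpi, 2 were lower and none higher, with a median log2 fold change of -0.30 over the list. These were Tnip1 (61.8 and 54.1 TPM against 40.7 and 44.6 TPM) and Tnfaip3 (54.5 and 69.7 TPM against 44.0 and 43.9 TPM), which act together in restraining NF-kB. At 7 dpi, past the unadjusted threshold only, Tnfaip3 stood at 148 and 150 TPM against 88.0 and 129 TPM (adjusted p = 0.302, limma), and Il1rl1, the receptor for interleukin-33, at 197 and 156 TPM against 503 and 383 TPM (log2 fold change 1.19, unadjusted p = 0.00101, adjusted p = 0.222, limma). Of the endogenous ligands, Lgals3, or galectin-3, was lower in Osr1cKO at 3 dpi (325 and 213 TPM against 93.4 and 164 TPM) and at 7 dpi, past the unadjusted threshold only, stood at 169 and 173 TPM against 281 and 274 TPM (adjusted p = 0.179, limma). In the same way, Saa3, an acute-phase protein, stood at 37.0 and 30.7 TPM against 112 and 87.9 TPM at 7 dpi (log2 fold change 1.40, unadjusted p = 0.000222, adjusted p = 0.147), and Hspd1, a heat shock protein, at 417 and 313 TPM against 272 and 297 TPM (adjusted p = 0.335). S100a8 and S100a9 of this list are also neutrophil markers and did not pass between genotypes.

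Of 12 target cytokines and enzymes tested at 3 dpi, 4 were lower in Osr1cKO and none higher. Ifnb1, the type I interferon switched on by Tlr3, stood at 15.6 and 10.9 TPM in control and at 4.43 and 1.02 TPM in Osr1cKO (log2 fold change -2.08, SE 0.52, unadjusted p = 0.00975, adjusted p = 0.772, limma). The chemokine Cxcl10 stood at 1438 and 1264 TPM against 573 and 206 TPM, and Ccl5 at 318 and 156 TPM against 84.5 and 25.5 TPM. The fourth was the chemokine Ccl2, at 3608 and 3556 TPM against 2153 and 2173 TPM. At 7 dpi no target passed the adjusted threshold, and 3 were below control and 2 above it at the unadjusted one. Below control were Cxcl10 (403 and 378 TPM against 206 and 281 TPM, adjusted p = 0.222, limma), Il6 (296 and 363 TPM against 217 and 219 TPM, adjusted p = 0.219) and Cxcl2 (325 and 383 TPM against 279 and 289 TPM, adjusted p = 0.263). Above control were Nos2 (adjusted p = 0.352, limma) and Csf3 (adjusted p = 0.335).

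Between days, 17 of the 72 pathway genes tested were higher (23.6%) and 21 lower (29.2%) at 7 dpi in control at the adjusted threshold, where 26.5% and 27.9% of all tested genes were. In Osr1cKO 17 were higher (23.6%) and 15 lower (20.8%), against 23.9% and 26.2% of all tested genes. These shares lie near the background and are no result about the pathway. Unc93b1 fell with the receptors it carries in both genotypes (log2 fold change -1.35 in control, adjusted p = 0.00223, and -0.95 in Osr1cKO, adjusted p = 0.0106, limma).

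**Figure D5:**
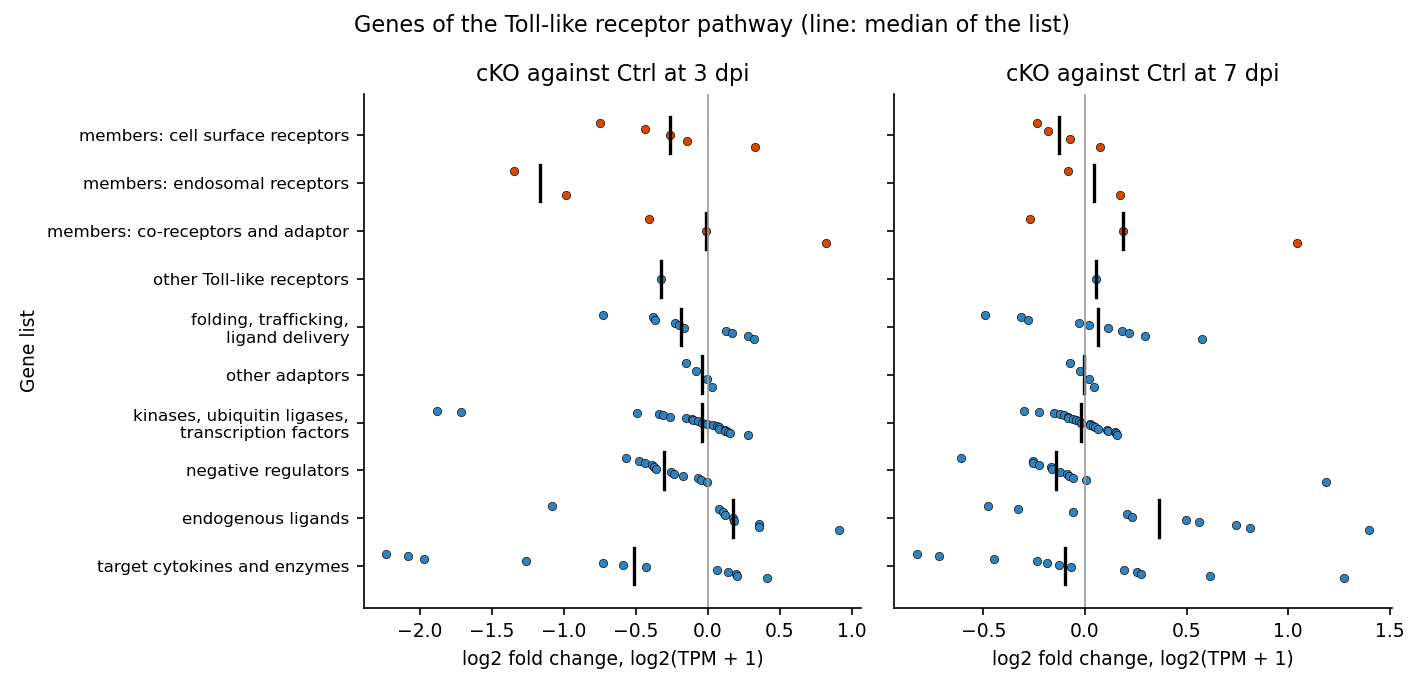
Log2 fold change of Osr1cKO against control at 3 dpi (left) and 7 dpi (right) for each tested gene of 10 lists, the members in orange and the other pathway genes in blue, with a line at the median of each list. The endosomal receptors lie furthest to the left by median at 3 dpi (-1.16), and the medians at 7 dpi lie between -0.14 and 0.36.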

How the data were processed

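Poly(A) RNA of sorted FAPs was sequenced with a stranded kit. The authors deposited 1 table of TPM per library, aligned with STAR to mm10 per the labels, which also name DESeq2 for the authors' own comparisons (not used); the counting tool, its use of strand and its annotation are not given in the sources used here, and the run named for each day differs between sources. Each table held 55385 entries; 109 further entries of 106 repeated symbols were left out. Fragments were recovered from TPM and exon lengths (GENCODE M21, GRCm38) for 53281 symbols: of values below 50 fragments, 98.7 to 99.0% were whole to 0.02, and counting error is that of fragments without molecular identifiers. Genes with at least 10 fragments in 2 libraries and 15 in all were kept (a mean of at least 1 TPM for the 1995 symbols without a length), TPM were scaled by each library's trimmed mean log2 ratio to the mean library (0.3 trimmed at each end), and log2(TPM + 1) was tested with limma 3.58.1 in R 4.3.3, separately at 3 dpi, at 7 dpi, and over all 8 libraries for days and the interaction. Adjusted p are Benjamini-Hochberg values over all tested genes. The differing thresholds per day follow the study's methods. Whether libraries overlap was read on scaled values, and the scripts were tested on simulated data. Each p rests on the spread of 2 libraries per group, pooled over the groups of the fit and moderated by limma over all genes. Where a library was left out, its group kept 1 library and had no spread of its own.

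Replicate numbers are not stated to pair libraries, and same-numbered libraries did not deviate together (r = -0.13 at 3 dpi and 0.06 at 7 dpi). The members, lists and tests were chosen with earlier results of these data known. Named were all 10 members; up to 3 genes per list and day of smallest p among those past an unadjusted p of 0.05 and a fold of 1.2 without overlap between genotypes; defining markers of other cells; and the 2 genes nearest in pattern. Nos2, Csf3, Ccl2, Ticam1 and some markers were added after their values were seen.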

Additional observations from a re-analysis of the deposited data

Results flagged for a closer look

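Tlr7 was lower in both Osr1cKO libraries than in both controls at 3 dpi and higher in both at 7 dpi. The effect of genotype at 7 dpi minus that at 3 dpi was 1.14 on the log2(TPM + 1) scale (standard error 0.31, unadjusted p = 0.00831, adjusted p = 0.612, limma interaction), so the difference did not pass after adjustment. At 7 dpi the gene had 16 to 30 fragments per library.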

How the results depend on the processing

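Besides each library left out, each comparison was refitted without scaling, with another scaling, other filters, other pseudocounts, robust variances, limma-voom, a replicate block and, between genotypes, with all 8 libraries or the other threshold. The 3 members called at 3 dpi became 6 with all 8 libraries and 0 at an adjusted p under 0.1, and ranged from 2 to 4 with a library left out. The 0 at 7 dpi became 1 with limma-voom, 2 at an unadjusted p under 0.05 and 0 to 1 with a library left out. Between days the count was 4 to 5 in control and 3 to 6 in Osr1cKO with a library left out, and the interaction gave 0 throughout. With the replicate block, which pairs libraries by number only, 4 members were called at 3 dpi (also with the numbers crossed, a fit chosen after seeing the data), 0 at 7 dpi, 4 and 5 between days, and 27 of all genes in place of 11 at 7 dpi.

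Of 701 refitted log2 fold changes of single members, 19 turned sign, all of values that had not passed. Without scaling, the median of all genes at 7 dpi moved from 0.005 to 0.11, genes at an unadjusted p under 0.05 went from 864 higher and 979 lower to 2280 higher and 468 lower, and the values were 0.05 for Tlr2, 0.04 for Tlr3 and 0.08 for the interaction of Tlr4. Ly96 at 3 dpi was 0.02 with all 8 libraries. With a library left out, the ranges that crossed 0 were -0.33 to 0.03 (Tlr4) and -0.45 to 0.43 (Ly96) at 3 dpi, -0.18 to 0.04 (Tlr2), -0.26 to 0.09 (Tlr3), -0.01 to 0.16 (Tlr5) and -0.57 to 0.10 (Tlr6) at 7 dpi, -0.01 to 0.75 (Tlr2 between days in control), -0.56 to 0.13 (Tlr6 between days in Osr1cKO), and, for the interaction, -0.20 to 0.10 (Tlr4), -0.21 to 0.62 (Cd14), -0.26 to 0.63 (Ly96) and -0.08 to 0.33 (Myd88). The cause was not tested.

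Over all genes, the 985 calls at 3 dpi became 410 without the second Osr1cKO library, 2801 without the second control library, 1801 with all 8 libraries and 0 at an adjusted p under 0.1. The 11 at 7 dpi became 0 to 188 under other fits, 5 to 314 with a library left out and 1843 at an unadjusted p under 0.05, and the 0 of the interaction became 0 to 40 under other fits and 0 to 105 with a library left out. With 2 libraries per group, small differences cannot be told from the spread, and Tlr1 and Tlr7 at 7 dpi rest on 1 to 30 fragments.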
